A study of Mus musculus with 6 samples.

Results

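The genes of the proteasome were examined in the frontal cortex of mice given the histone deacetylase inhibitor SAHA. They were taken as every gene whose symbol begins with Psm, a letter from a to g and a digit. The rule found 50 of the 19938 genes measured with a probe set of a single symbol. Of these, 48 were counted as subunits, assembly factors, activators or inhibitor of the proteasome, and 2 as matched by name only. The 2 are Psmc3ip, a recombination factor of meiosis, and Psme3ip1, which binds the activator Psme3 but was not counted with the proteasome. The 48 were set apart as 7 subunits of the alpha ring and 7 of the beta ring of the 20S core, 6 ATPases, 3 other base subunits and 8 lid subunits of the 19S regulatory particle, 7 assembly factors, 5 activators and inhibitors, 3 immunoproteasome subunits and 2 tissue-restricted core subunits.

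All mice were wild type, of strain 129S6/SvEv and aged 8 to 12 weeks. The SAHA group (suberoylanilide hydroxamic acid, vorinostat, at 20 mg per kg) and the vehicle group, which the sample titles call saline, were injected over 21 days and killed 1 day after the final injection. Each group held 3 libraries of frontal cortex RNA, each read on 1 whole-transcript Affymetrix array. The labels do not say that every library came from its own mouse. The p-values therefore weigh only the scatter among these 6 libraries, part or all of which could be technical.

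The 26S proteasome degrades proteins that carry ubiquitin chains. Its 20S core is a barrel of alpha and beta rings in which 3 beta subunits cut peptide bonds, and its 19S regulatory particle binds the chain, removes it and threads the substrate into the core through a ring of ATPases. In neurons the proteasome turns over synaptic proteins, and in immune cells interferon exchanges the cutting subunits for those of the immunoproteasome. When proteasome activity falls, the transcription factor Nfe2l1 raises the subunit genes together through antioxidant response elements in their promoters.

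The deposited values ran from 1.43 to 14.2 log2 over the 6 arrays, and the SEs of the log2 differences centred on 0.0771. Markers of the labelled tissue were present: 8 of 10 listed markers of cortical excitatory neurons were measured, none below 7.49 log2 in any library, and their summed signal was 13.3 log2 in every SAHA and saline library. RMA values have no zero, and the file gives no detection call. A pair of arrays stood apart in transcripts of the sex chromosomes. Xist, which coats and silences an X chromosome, was at 4.63, 4.86 and 4.76 in SAHA replicates 1 to 3, against 10.9, 4.86 and 4.88 in saline replicates 1 to 3. The Y-linked gene Eif2s3y was at 9.18, 9.24 and 7.80 in SAHA, against 9.20, 9.25 and 9.20 in saline, and Kdm5d and Uty were likewise lowest in SAHA replicate 3. Saline replicate 1 and SAHA replicate 3 are the arrays concerned, and counts without both are given below. In whole tissue, fewer cells of a type and less RNA per cell cannot be told apart.

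Most constitutive proteasome subunits had a slightly lower mean signal in SAHA than in saline, although the beta ring and ATPase medians turned positive after quantile and cyclic loess normalization, and no member passed the test across all genes. Of the 31 subunits of the 26S proteasome, 29 had a lower mean, with a median log2 difference of -0.087 and a range of -0.23 to 0.035. The other 19 members were divided, with 10 lower and 9 higher and a median of -0.011. Over all 50 members the median was -0.063 with 39 lower (78%), where all genes had a median of 0.011 and 47.1% were lower. The limma test with Benjamini-Hochberg adjustment over all genes called 0 of 50 members and 0 of 19938 genes (0%), and the smallest adjusted p of a member was 0.188. Before adjustment, 5 members (10%) were lower with p under 0.05, where 5.56% of all genes were, and 2 (4%) were higher, where 11.9% of all genes were. All 3 SAHA values lay below all 3 saline values for 13 members (26%), where 10.4% of all genes did so, and above them for 2 (4%), where 13.6% did. The 13 became 21 without SAHA replicate 2, where 19.2% of all genes lay below.

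**Figure D1:**
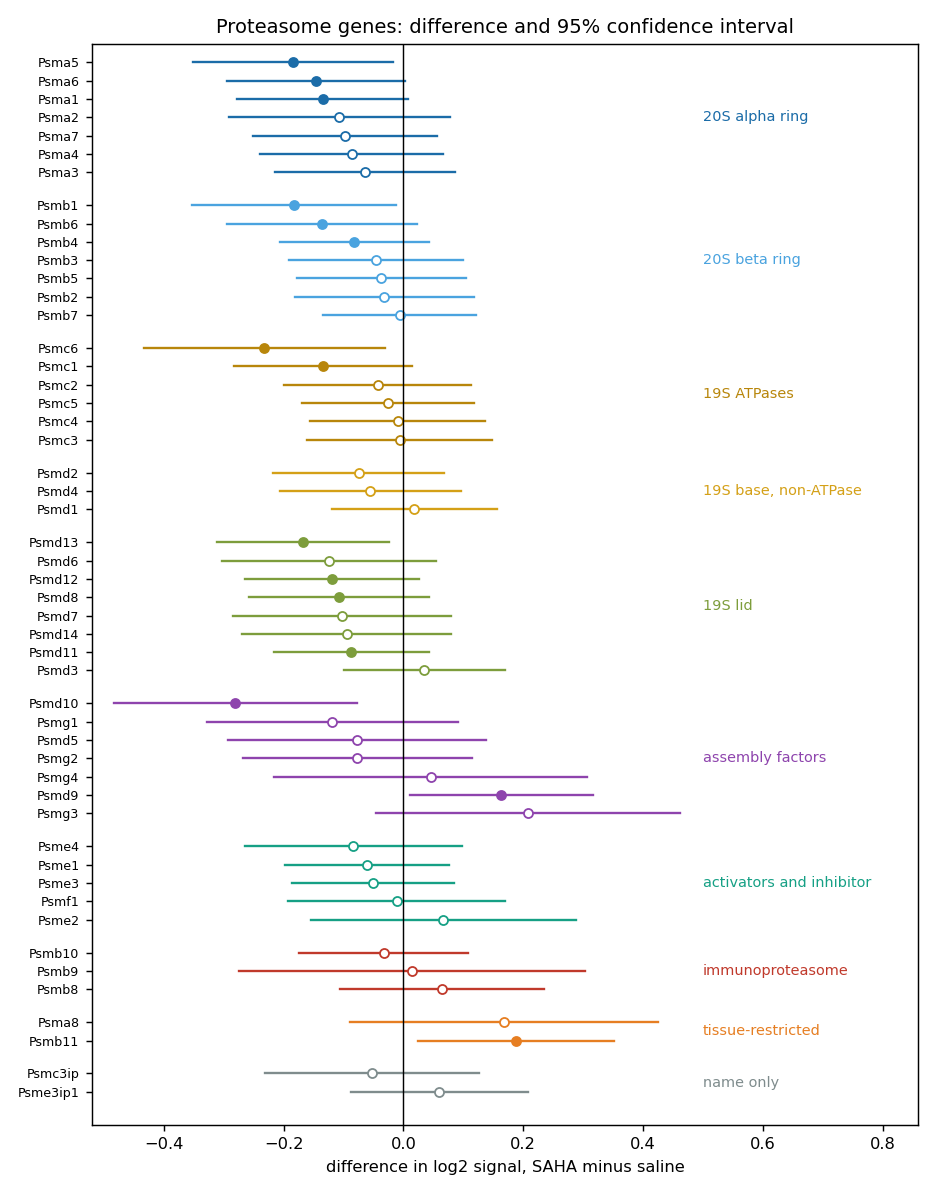
Log2 difference between SAHA and saline for each of the 50 genes, with the 95% confidence interval of the moderated fit as a line, by structural group. Filled points are the 15 genes whose groups did not overlap, 13 lower and 2 higher; 29 of the 31 subunits of the 26S proteasome lie left of 0.

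The direction of the members followed their brightness on the array, as that of all genes did. Among the 35 members in the top quartile of signal, 33 were lower (94.3%), where 78.1% of the 4985 genes of that quartile were lower. Their median was -0.084, against -0.053 for that quartile. In the same quartile 12 of 35 members (34.3%) lay below saline without overlap, where 21.1% of the genes did. The share in the quartile is the nearer background, since 24 members fall in the brightest decile of the genes, whose median difference was -0.051. Of the 15 members below that quartile 6 were lower and 9 higher, with a median of 0.035. The quartile was chosen after the values were seen.

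**Figure D2:**
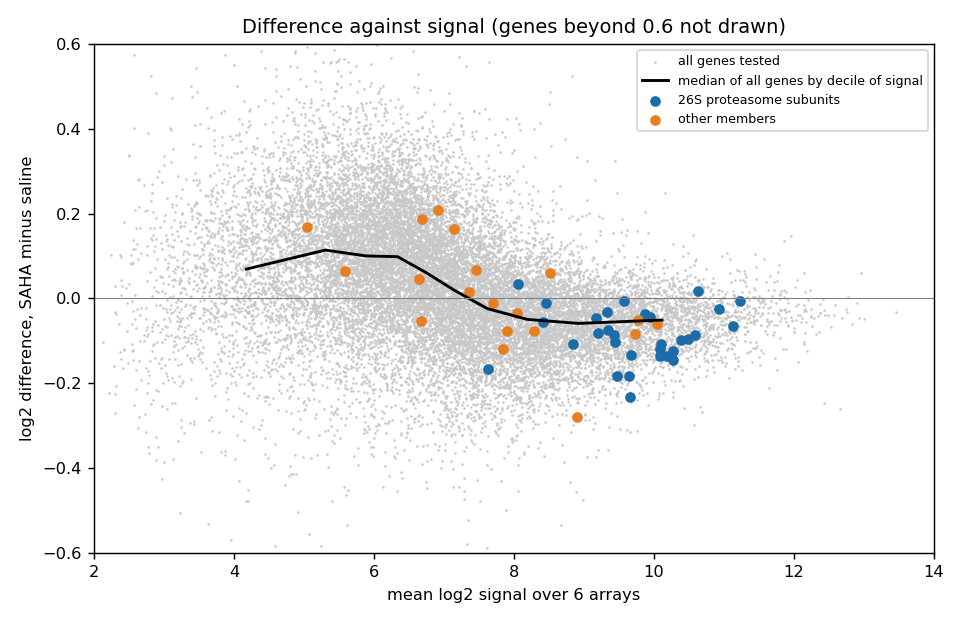
Log2 difference between SAHA and saline against mean log2 signal over 6 arrays for all genes (grey), the 31 subunits of the 26S proteasome (blue) and the other 19 members (orange). The black line, the median of all genes by decile of signal, lies at 0.11 in the second decile and at -0.051 in the brightest, and blue points lie on both sides of it. Genes past the axis are not drawn.

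The promoters of the members are shown because the subunit genes are known to be controlled together through short elements. In the RefSeq table (GRCm38.p6) 40 of the 48 proteasome genes have 43 windows, each of 250 bases before and 50 after an annotated start. The core of the antioxidant response element, TGACNNNGC on either strand, lay in 6 of the 43 windows (14%), where 12.4% of all 32851 windows hold it. The 6 matches follow with up to 20 bases on either side, the element in capitals.
Psmb5 (chr14:54618014-54618062, minus strand): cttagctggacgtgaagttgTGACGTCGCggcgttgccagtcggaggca
Psmb6 (chr11:70525328-70525376, plus strand): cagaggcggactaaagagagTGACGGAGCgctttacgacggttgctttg
Psmc6 (chr14:45329577-45329625, plus strand): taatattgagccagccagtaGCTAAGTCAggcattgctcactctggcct
Psmd12 (chr11:107479278-107479309, plus strand): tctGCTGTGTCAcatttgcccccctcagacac
Psmd9 (chr5:123228139-123228187, plus strand): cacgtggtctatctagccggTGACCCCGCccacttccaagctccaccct
Psme4 (chr11:30771748-30771796, plus strand): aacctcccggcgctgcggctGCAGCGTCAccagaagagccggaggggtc
Psmb5 and Psmb6 carry cutting activities of the core, Psmc6 is an ATPase, Psmd12 a lid subunit, Psmd9 an assembly factor and Psme4 an activator of the nucleus. Their log2 differences were -0.037, -0.14, -0.23, -0.12, 0.16 and -0.084, so all but Psmd9 were lower. Psmd9 lies in signal decile 6, where all genes had a median difference of 0.019. The others lie in decile 10, the brightest, at -0.051.

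The core bound by ETS factors, CCGGAAG on either strand, was in 15 of the 43 windows (34.9%), where 8.86% of all windows hold it. CCAAT, bound by NF-Y, was in 14 (32.6%, where 37.4% of all windows hold it), and GAAANNGAA, a core of interferon response elements, in 7 (16.3%, against 8.56%). Member windows had a GC content of 58.3% ± 6.86 (SD, n = 43) and all windows 53.8% ± 11.3 (SD, n = 32851), which was not adjusted for. The 14 genes with an ETS core had a median log2 difference of -0.10 and 13 of them were lower. In the 26 others with a window the median was -0.054 and 19 were lower. The median percentile of signal was 92 in the genes with the core and 87.8 in the others. The immunoproteasome subunits and the dim Psmb11 all lie among the others, and the split was not adjusted for structural group or signal. A link of the core to the differences was not tested. The next 4 lines show the start regions, from 140 bases before to 10 after the annotated start, of the members with an unadjusted p under 0.05 that were lower and have a window, with ETS cores and CCAAT boxes in capitals.
Psma5 (chr3:108256786-108256935, plus strand): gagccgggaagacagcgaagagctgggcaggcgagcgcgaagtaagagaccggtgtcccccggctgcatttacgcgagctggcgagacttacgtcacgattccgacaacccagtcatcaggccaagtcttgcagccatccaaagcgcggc
Psmc6 (chr14:45329684-45329833, plus strand): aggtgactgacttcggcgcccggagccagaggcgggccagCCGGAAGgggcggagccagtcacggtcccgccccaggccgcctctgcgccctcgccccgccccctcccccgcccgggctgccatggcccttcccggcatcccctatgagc
Psmd10 (chrX:140956702-140956851, minus strand): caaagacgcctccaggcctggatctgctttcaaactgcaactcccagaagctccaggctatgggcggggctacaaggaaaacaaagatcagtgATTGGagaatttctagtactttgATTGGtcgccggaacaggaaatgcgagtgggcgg
Psmd13 (chr7:140882254-140882403, plus strand): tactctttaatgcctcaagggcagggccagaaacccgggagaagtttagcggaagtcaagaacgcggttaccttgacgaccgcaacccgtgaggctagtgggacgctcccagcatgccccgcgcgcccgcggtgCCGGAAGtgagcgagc
Psmc6 and Psmd13 show an ETS core, in Psmd13 at the start itself. Psmd10 shows 2 CCAAT boxes on the opposite strand, and the stretch of Psma5 shows neither. Within a member window, matches of different motifs did not overlap. A match is a string of letters, and binding was not measured here.

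The alpha ring, the gate of the core, had 7 of 7 subunits lower, with a median of -0.11 and a range of -0.18 to -0.065. All genes of the top quartile of signal, which holds this ring, had a median of -0.053 with 78.1% lower. Psma5 had log2 signals of 9.38, 9.40 and 9.33 in SAHA replicates 1 to 3, against 9.68, 9.46 and 9.53 in saline replicates 1 to 3. Psma6 was at 10.12, 10.27 and 10.21 in SAHA, against 10.40, 10.34 and 10.31 in saline. Psma1 was at 10.08, 10.13 and 10.12 in SAHA, against 10.30, 10.27 and 10.17 in saline. For these 3 subunits every SAHA library lay below every saline library. Their differences were -0.18 (SE 0.072), -0.15 (SE 0.064) and -0.14 (SE 0.061), and limma gave adjusted p of 0.253, 0.294 and 0.305. The groups overlapped for Psma2, Psma3, Psma4 and Psma7, whose differences lay between -0.11 and -0.065.

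Of the beta ring, which holds the cutting sites, 7 of 7 subunits were lower, with a median of -0.046. These subunits all lie in the top quartile of signal, where 78.1% of genes were lower and the median was -0.053. The beta ring median turned to 0.016 and 0.0084 after quantile and cyclic loess normalization. Psmb1, a subunit without a cutting site, was at 9.54, 9.61 and 9.53 in SAHA, against 9.86, 9.63 and 9.72 in saline. Psmb6, which cuts after acidic residues, was at 9.99, 9.97 and 10.08 in SAHA, against 10.25, 10.11 and 10.09 in saline. Psmb4, also without a cutting site, was at 9.16, 9.17 and 9.14 in SAHA, against 9.23, 9.23 and 9.26 in saline. In all 3 the groups stood apart, although the nearest libraries of Psmb1 and Psmb6 nearly touched. The differences were -0.18 (SE 0.074) for Psmb1, -0.14 (SE 0.068) for Psmb6 and -0.082 (SE 0.054) for Psmb4, with adjusted p of 0.262, 0.341 and 0.449 from limma.

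The other 2 cutting subunits were close to saline. Psmb5, which cuts after hydrophobic residues and is the main target of proteasome inhibitors, was at 9.80, 9.90 and 9.88 in SAHA, against 9.91, 9.94 and 9.84 in saline. Psmb7, which cuts after basic residues, was at 11.24, 11.25 and 11.19 in SAHA, against 11.24, 11.22 and 11.24 in saline. Their groups overlapped, with differences of -0.037 (95% interval -0.18 to 0.10) and -0.0060 (95% interval -0.13 to 0.12), and both turned positive after quantile and cyclic loess normalization. Psmb2 and Psmb3 differed by -0.032 and -0.046, also with overlap.

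The 6 ATPases of the base, which unfold the substrate, were all lower, with a median of -0.034. In the top quartile of signal, where all of them lie, 78.1% of genes were lower, with a median of -0.053. The ATPase median turned to 0.023 and 0.021 after quantile and cyclic loess normalization. Of the ATPases, 2 stood off from the rest. Psmc6 was at 9.40, 9.71 and 9.52 in SAHA, against 9.84, 9.77 and 9.71 in saline. Psmc1, which helps open the gate of the core, was at 9.58, 9.64 and 9.60 in SAHA, against 9.83, 9.71 and 9.67 in saline. Neither gene had overlapping groups, although SAHA replicate 2 and saline replicate 3 nearly met for Psmc6. The differences were -0.23 (SE 0.087) and -0.13 (SE 0.064), and limma gave adjusted p of 0.239 and 0.323. Psmc2, Psmc3, Psmc4 and Psmc5 lay between -0.043 and -0.0064 with overlap.

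In the base the 3 subunits without ATPase activity overlapped between groups. Psmd2, a scaffold that docks ubiquitin shuttles, was at 9.27, 9.27 and 9.39 in SAHA, against 9.38, 9.41 and 9.36 in saline. Psmd4, a ubiquitin receptor, was at 8.38, 8.31 and 8.47 in SAHA, against 8.42, 8.41 and 8.50 in saline. Psmd1, the other scaffold, differed by 0.018 (SE 0.060). Psmd2 and Psmd4 differed by -0.074 (SE 0.062) and -0.055 (SE 0.065).

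The lid, which removes ubiquitin chains, had 7 of 8 subunits lower, with a median of -0.10. The top quartile of signal, which holds most of the lid, had 78.1% of its genes lower and a median of -0.053. Psmd13 was at 7.47, 7.58 and 7.57 in SAHA, against 7.75, 7.72 and 7.66 in saline. Psmd12 was at 10.02, 10.07 and 9.997 in SAHA, against 10.23, 10.13 and 10.09 in saline. Both are structural subunits of the lid, and in both the SAHA libraries all lay below the saline libraries. Psmd8 was at 8.71, 8.83 and 8.82 in SAHA, against 8.85, 8.96 and 8.87 in saline. Psmd11, a subunit that braces the lid against the core, was at 9.37, 9.40 and 9.40 in SAHA, against 9.51, 9.43 and 9.49 in saline. These 2 also stood apart, by a narrow gap. The differences were -0.17 (SE 0.062), -0.12 (SE 0.063), -0.11 (SE 0.065) and -0.087 (SE 0.056) in the order given, and the limma adjusted p were 0.236, 0.358, 0.417 and 0.439. Psmd14, the deubiquitinase of the lid, differed by -0.095 (SE 0.075), and Psmd6 and Psmd7 by -0.13 (SE 0.077) and -0.10 (SE 0.079), all with overlap. Psmd3 was the member above 0, at 0.035 (SE 0.058).

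Assembly factors differed in direction, with 4 of 7 lower. Psmd10 (gankyrin), a chaperone of the ATPase ring, was at 8.64, 8.79 and 8.86 in SAHA, against 9.19, 8.95 and 8.99 in saline. It had the smallest p of the members, with a difference of -0.28 (SE 0.088, 95% interval -0.48 to -0.078), an SAHA level 0.823-fold that of saline and an adjusted p of 0.188 in limma. The gene is X-linked, and saline replicate 1, the library with high Xist, had its highest value. That library was also the highest for 20 of the 31 subunits of the 26S proteasome, all autosomal, and for 43.2% of the top quartile of signal. Without it the difference of Psmd10 was -0.21, and without saline replicate 1 and SAHA replicate 3 together it was -0.26. Psmd9, another chaperone of the ATPase ring, went the other way. It was at 7.26, 7.21 and 7.20 in SAHA, against 7.01, 7.17 and 7.002 in saline, a difference of 0.16 (SE 0.066) at an adjusted p of 0.263 in limma, with groups that did not overlap. Psmd5, the third chaperone of that ring, differed by -0.077 (SE 0.093). The alpha-ring chaperones Psmg1, Psmg2, Psmg3 and Psmg4 differed by -0.12 (SE 0.091), -0.077 (SE 0.083), 0.21 (SE 0.11) and 0.045 (SE 0.11), all with overlap.

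Among the activators, which cap the core in place of the regulatory particle, and the inhibitor, 4 of 5 were lower and the groups of all 5 overlapped. Psme4, which is linked to the breakdown of acetylated histones, was at 9.57, 9.77 and 9.73 in SAHA, against 9.67, 9.83 and 9.83 in saline. Psme1, a cytosolic activator subunit that interferon raises, was at 10.05, 9.997 and 9.98 in SAHA, against 10.08, 10.12 and 10.01 in saline. These differences of -0.084 (SE 0.078) and -0.061 (SE 0.059) were near the spread of single libraries. Psme2, the partner of Psme1, differed by 0.066 (SE 0.096), the nuclear activator Psme3 by -0.051 (SE 0.059) and Psmf1, the inhibitor, by -0.011 (SE 0.078).

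**Figure D3:**
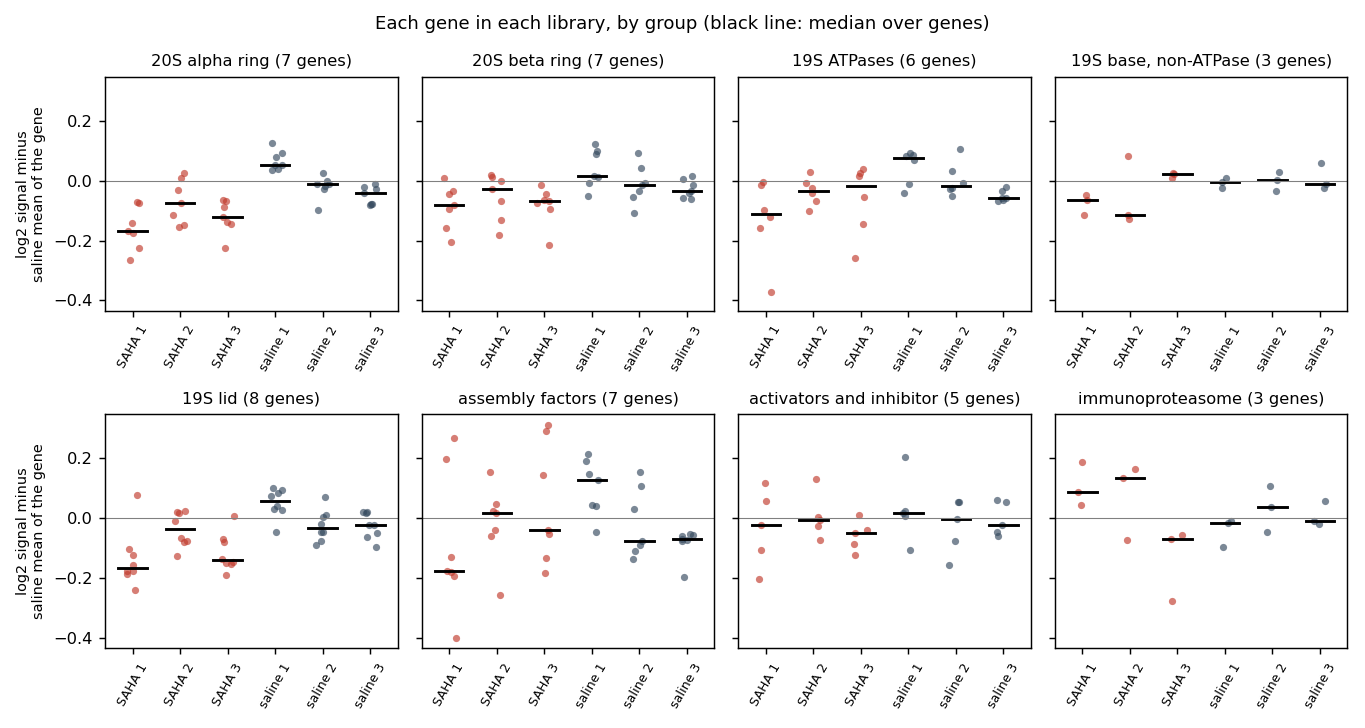
Log2 signal of each gene minus its saline mean, in the 3 SAHA libraries (red) and the 3 saline libraries (slate), for 8 structural groups. Black lines are medians over genes: in the alpha ring they are at -0.17, -0.076 and -0.12 in SAHA and at 0.052, -0.012 and -0.041 in saline, while the immunoproteasome medians are on both sides of 0 in SAHA.

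The immunoproteasome subunits showed no shared direction. Psmb8, the interferon-induced counterpart of Psmb5, was at 5.63, 5.71 and 5.49 in SAHA, against 5.54, 5.50 and 5.60 in saline. Psmb9, the counterpart of Psmb6, was at 7.53, 7.48 and 7.07 in SAHA, against 7.25, 7.45 and 7.33 in saline. Psmb10, the counterpart of Psmb7, was at 8.11, 7.99 and 8.00 in SAHA, against 8.05, 8.10 and 8.05 in saline. The groups overlapped in all 3, with differences of 0.064 (95% interval -0.11 to 0.24), 0.014 (95% interval -0.27 to 0.30) and -0.033 (95% interval -0.17 to 0.11). SAHA replicate 3 was the lowest library for Psmb8 and Psmb9. Without it the median of the 3 was 0.12, and without SAHA replicate 1 it was -0.071.

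Within each array the immunoproteasome subunit was also set against its counterpart, as a log2 ratio of the probe sets, which has meaning only between libraries. For Psmb8 over Psmb5 the ratio differed by 0.10 between SAHA (SD 0.12, n = 3) and saline (SD 0.10, n = 3). For Psmb9 over Psmb6 it differed by 0.15 (SD 0.31 in SAHA and 0.17 in saline), and for Psmb10 over Psmb7 by -0.027 (SD 0.062 in SAHA and 0.044 in saline). All 3 ratios overlapped between groups. Psmb8, Psmb9 and Psmb10 lie in signal deciles 2, 6 and 8, where all genes had median differences of 0.11, 0.019 and -0.050. Their counterparts lie in decile 10, the brightest, at -0.051. The ratios carry these unequal backgrounds and were not adjusted for them. The ratios were not fitted in limma, and no p is given. An exact permutation test of 3 against 3 libraries cannot reach a p below 0.1.

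Microglia express the immunoproteasome, and their markers were examined beside it. Of 12 listed markers 11 were measured, 5 lower and 6 higher in SAHA, none was below 5.86 log2 in a library, and their summed signal was between 11.38 and 11.40 log2 in SAHA and between 11.37 and 11.42 in saline. Blood cells express it as well: 5 of 11 listed markers were measured, none of them a globin, and all 5 were higher in SAHA. Of the 5, 3 lay above saline without overlap, where 13.6% of all genes did. These were S100a8, S100a9 and Slc4a1, with differences of 0.46, 0.21 and 0.38. Alas2 and Ngp overlapped, with differences of 0.044 and 0.0068. S100a8, S100a9 and Ngp were dim. They lie in deciles 1 and 2 of signal, counted from the dimmest, where all genes had median differences of 0.069 and 0.11. Slc4a1 lies in decile 4, where that median was 0.098. The summed signal of these 5 was between 8.45 and 8.57 log2 in SAHA, against 8.25 to 8.37 in saline. Their part in the values of the immunoproteasome was not tested.

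The 2 tissue-restricted subunits had dim probe sets. Psmb11, the thymus form of Psmb5, was at 6.88, 6.69 and 6.77 in SAHA, against 6.60, 6.66 and 6.53 in saline. Psma8, a testis form of an alpha subunit, was at 5.38, 4.96 and 5.05 in SAHA, against 5.004, 5.02 and 4.86 in saline. Psmb11 did not overlap, with a difference of 0.19 (SE 0.071) at an adjusted p of 0.242 in limma, and Psma8 overlapped, at 0.17 (SE 0.11). In the deciles of signal that hold these genes all genes had median differences of 0.062 and 0.11. The 2 genes matched by name only overlapped as well. Psmc3ip was at 6.53, 6.77 and 6.66 in SAHA, against 6.63, 6.72 and 6.76 in saline, and Psme3ip1 at 8.52, 8.50 and 8.62 in SAHA, against 8.55, 8.47 and 8.44 in saline.

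The size of the shift of the 26S subunits differed between libraries. Relative to the saline mean of each gene, their median was -0.12, -0.041 and -0.073 in SAHA replicates 1 to 3, against 0.051, -0.016 and -0.033 in saline replicates 1 to 3. SAHA replicate 2 and saline replicate 3 thus differed little. SAHA replicate 1 was the lowest of the 6 libraries for 15 of the 31 subunits (48.4%), where it was the lowest for 44.3% of genes in the top quartile of signal. Saline replicate 1 was the highest for 20 of 31 (64.5%), where it was the highest for 43.2% of that quartile. With any 1 library left out the median of the 26S subunits lay between -0.11, without SAHA replicate 2, and -0.064, without SAHA replicate 1, and 26 to 29 of the 31 were lower. Without saline replicate 1 and SAHA replicate 3, 26 of the 31 subunits were lower, with a median of -0.062. Over all 50 members 16 then lay below saline without overlap and 10 above, where 19.8% of all genes lay below and 22.5% above with 2 libraries a group.

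Markers of other cells were set beside the 26S subunits. Of 10 listed markers of oligodendrocytes and myelin 9 were measured, of which 8 were lower, with a median of -0.12. Their summed signal was 11.97, 12.01 and 12.37 log2 in SAHA replicates 1 to 3, against 12.16, 12.21 and 12.21 in saline replicates 1 to 3, so SAHA replicate 3 was the highest library and the groups overlapped. Of 11 listed markers of striatal medium spiny neurons 8 were measured, of which 5 were lower, with a median of -0.091. Their summed signal ran between 11.26 and 11.66 log2 in SAHA and between 11.39 and 11.81 in saline. In the excitatory neuron list 4 of 8 measured markers were lower, as in the interneuron and astrocyte lists, and of the endothelial and the choroid plexus markers 2 of 8 and 2 of 9 were. The part of these cells in the values of the proteasome subunits was not tested.

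Scaling between arrays changed both the size and the direction of some groups. Over all probe sets, the deposited arrays had median log2 signals of 6.75, 6.72 and 6.74 in SAHA replicates 1 to 3. In saline replicates 1 to 3 they were 6.66, 6.70 and 6.71. After quantile normalization the median of the 26S subunits was -0.039 and 21 of 31 were lower, and after cyclic loess normalization it was -0.031 with 21 lower. Under these scalings 8 and 6 of the 50 members lay below saline without overlap, where 8.95% and 9.72% of all genes did. After median centring the median was -0.13 and 31 of 31 were lower. Centring also moved the median of all genes, from 0.011 to -0.035, and 17.2% of all genes then lay below saline without overlap. The alpha ring and the lid kept negative medians under all 4 scalings, while the beta ring and the ATPases turned positive under quantile and cyclic loess normalization.

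**Figure D4:**
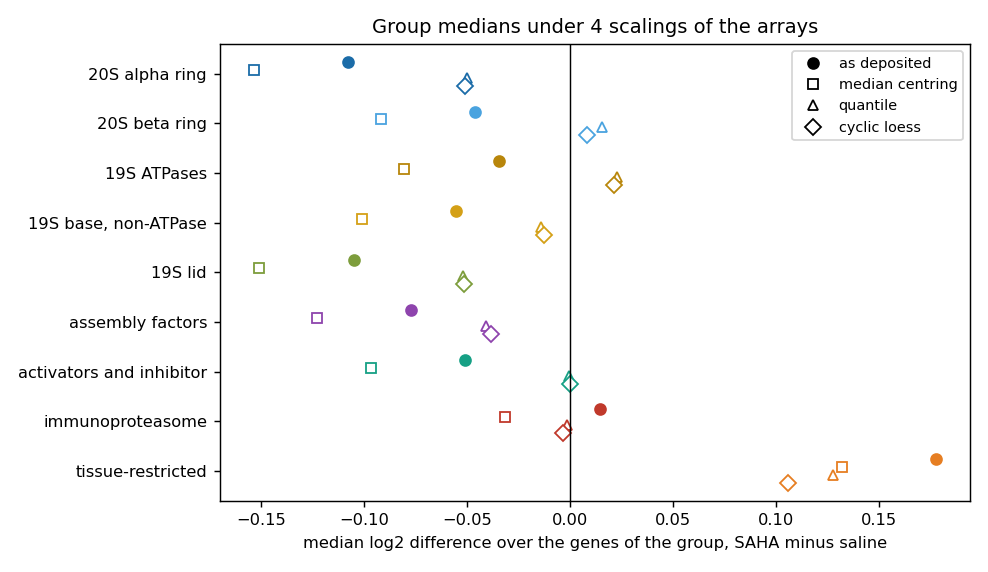
Median log2 difference between SAHA and saline over the genes of each structural group, for the deposited values (filled) and after median centring, quantile and cyclic loess normalization (open). The alpha ring stays between -0.15 and -0.050, whereas the beta ring moves between -0.092 and 0.016.

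Among the members 5 had more than 1 probe set, and the brightest was used. For Psma5 the used probe set differed by -0.18 and the other by -0.092, with overlapping groups in the second. For Psmc1 the used one differed by -0.13 and the other by -0.035, again with overlap in the second. Psmb3 differed by -0.046 in the used probe set and by -0.15 in the other, Psmd2 by -0.074 and -0.048, and Psma3 by -0.065, -0.085 and -0.040 over 3 probe sets. Processed copies of these genes exist in the genome, and hybridisation to them was not tested.

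Genes that work with the proteasome were read from lists. Of the partners and shuttle factors, 17 listed symbols including older names matched 12 genes, of which 10 were lower, with a median of -0.076. Most of the 12 lie in the top quartile of signal, where 78.1% of genes were lower, with a median of -0.053. At an unadjusted p under 0.05 was 1 of the partners, Txnl1, a thioredoxin-like protein of the regulatory particle. It was at 9.14, 9.29 and 9.15 in SAHA, against 9.44, 9.34 and 9.47 in saline, a difference of -0.23 (SE 0.069) at an adjusted p of 0.181 in limma. Of 10 listed genes that supply and activate ubiquitin or extract substrates with Vcp, 4 were measured and 3 were lower, and the smallest p was that of Uba6, a ubiquitin-activating enzyme, at -0.16 (SE 0.10). Of 9 listed genes around Nfe2l1 8 were measured, and 4 were lower and 4 higher, with a median of -0.012 and 0 at an unadjusted p under 0.05. Nfe2l2, a relative of Nfe2l1, had the smallest p of these, at -0.13 (SE 0.083). Nfe2l1 itself, named after its value was seen, differed by 0.0031 (SE 0.060).

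Of 11 listed genes of antigen presentation that interferon regulates 8 were measured, and 4 were lower and 4 higher. Nlrc5, the activator of MHC class I genes, was at 9.18, 9.13 and 9.28 in SAHA, against 8.86, 8.91 and 8.86 in saline, without overlap. The difference was 0.32 (SE 0.063), at an adjusted p of 0.12 in limma. Irf8, a transcription factor of myeloid cells, differed by 0.24 (SE 0.080) at an adjusted p of 0.208 in limma. Beside these values Psmb8, Psmb9 and Psmb10, which lie in the same interferon program, differed by 0.064, 0.014 and -0.033.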

How the data were processed

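Frontal cortex RNA of 6 libraries, 3 SAHA and 3 saline, was read on 1 array each. The deposited values are log2 signals per probe set, per the values themselves; Affymetrix Expression Console and RMA are named in the submitters' processing notes, with no version. RMA removes background, scales arrays to each other and combines the probes of a set, so what 1 array gains in some probe sets it can lose in others. The platform annotation gives 1 symbol to 21789 of the 35556 probe sets, more than 1 to 1621 and no symbol to 12146. A gene was its brightest single-symbol probe set. Groups came from the sample titles. SAHA minus saline was tested in limma 3.58.1 (R 4.3.3; lmFit, then eBayes) over 19938 genes, two-sided, without a block, a filter or weights, with Benjamini-Hochberg adjustment and a threshold of 0.05. The fit was tested on simulated data with planted changes larger than the difference of any member, so that check does not cover differences of the members' size. Figures were drawn with matplotlib 3.10.9. The members, the lists and the alternatives were chosen with earlier results of these data known. All members are counted. Values in every library are given for members with an unadjusted p under 0.05 or groups apart, the catalytic pairs and the 2 smallest p of each group. From the lists of proteasome partners, ubiquitin, Nfe2l1 and antigen presentation, genes with an unadjusted p under 0.05, or the smallest p, are named. Cell type markers are given mostly by count, and some left unnamed also had an unadjusted p under 0.05 in limma. Alternatives were other scalings, a signal filter, mean probe sets, variance trends, array weights, a replicate block and libraries left out. Same-numbered libraries did not deviate together (correlations of -0.10, -0.079 and 0.015), so numbers were not taken as pairs.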

Additional observations from a re-analysis of the deposited data

How the results depend on the processing

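Called genes numbered 0 of 19938 on the deposited values, 27 after genes under the median signal were removed, 28 when eBayes was given a trend and 31 when that trend was robust. They were 0 with all probe sets tested, a choice made after seeing the data, with the replicate block and with any library left out. At an unadjusted p under 0.05 there were 3472 genes and 7 members. Called members numbered 0 under every alternative with an adjusted p. All genes had a median of 0.011 as deposited, -0.035 after median centring and 0.0098 after quantile normalization. The members' median of -0.063 became -0.11 after median centring and -0.018 after quantile normalization. With the replicate block it was unchanged, since the block alters only the error. The 13 members below saline without overlap became 8 after quantile and 6 after cyclic loess normalization, and between 13 and 21 with 1 library left out, 21 without SAHA replicate 2. Of all genes, 10.4% lay below on the deposited values, and between 13.5% and 19.2% with 1 library left out. Groups of fewer libraries separate more easily, and other causes were not tested.

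Among the members with values in every library and the group medians, those that changed sign lay between -0.077 and 0.064 as deposited. The members' median, -0.063, lies in that range. Other 26S subunits changed sign as well, since 21 of 31 were lower after quantile and after cyclic loess normalization, against 29 as deposited. After quantile and cyclic loess normalization Psmb5 was at 0.016 and 0.020, Psmb7 at 0.039 and 0.047, Psmb8 at -0.0040 and -0.030, the beta ring median at 0.016 and 0.0084, the ATPase median at 0.023 and 0.021, and the immunoproteasome median at -0.0016 and -0.0036. Median centring put Psmb9 and the immunoproteasome median at -0.032, and array weights put them at -0.045 and -0.038. The immunoproteasome median was -0.0095 once genes under the median signal were removed, Psmb8 with them. With 1 library left out Psmb7 ranged from -0.018 to 0.014, Psmb9 from -0.072 to 0.16, Psmc3ip from -0.11 to 0.0093, the immunoproteasome median from -0.071 to 0.12, and the assembly factor median from -0.10 to 7.73e-05, its upper end without saline replicate 2. Without saline replicate 1 and SAHA replicate 3, Psmb7 was at 0.019. The number of arrays limits the precision, and dim probe sets carry no detection call.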

Other observations

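A probe set outside the comparisons pairs with both Psme2b and Psme2 in the annotation, so its signal belongs to neither gene alone. It was at 6.77, 6.65 and 6.56 in SAHA replicates 1 to 3, against 7.22, 7.04 and 6.99 in saline replicates 1 to 3. All 3 SAHA libraries lay below all 3 saline libraries, and the log2 difference was -0.42 (SE 0.091), at an adjusted p of 0.213 over all probe sets in limma. This exceeds in size the difference of every member. The probe set of Psme2 alone was at 7.48, 7.55 and 7.43 in SAHA, against 7.63, 7.27 and 7.38 in saline, which overlap. The reason for the unequal readings was not tested.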
